A study of Mus musculus with 15 samples.

Results

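Both arms of the miR-126a hairpin, mmu-miR-126a-3p and mmu-miR-126a-5p, were examined in small RNA libraries of mouse pancreatic acini, the enzyme-secreting units of the exocrine pancreas. They were chosen by name as the 2 miRNAs known to mark endothelial cells, with earlier results of these data known. They are 2 of the 1915 mature miRNAs in the deposited table. All 15 libraries came from pancreatic acini of C57BL/6 mice aged 7 to 8 weeks and carried no labelled genetic change. Acini were treated with caerulein at 100 nM, caerulein at 100 pM, taurolithocholic acid 3-sulfate (TLC-S) at 250 uM or TLC-S at 62.5 uM, or were labelled control, with 3 libraries in each group. Caerulein is a peptide that activates the cholecystokinin receptor, and in the study's description 100 nM stands for a pathological dose and 100 pM for a physiological one. TLC-S is a sulfated bile acid that is toxic to acinar cells. No treatment time was found in the labels. The labels say that RNA from 3 independent acinar preparations was pooled, but do not tie a preparation to a library. The p-values therefore cover only the spread between libraries, which may be technical.

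miRNAs are short RNAs cut from hairpin precursors, and each hairpin can give a mature strand from its 5p and its 3p side. A mature strand binds target mRNAs mainly through its seed, bases 2 to 8, and lowers their output. miR-126 is made from a hairpin within Egfl7, a gene of endothelial cells, and is known for keeping blood vessels intact. The 3p strand restrains Spred1 and Pik3r2, which dampen signalling from the vascular endothelial growth factor receptor. The 5p strand is known in mouse endothelial cells for restraining Dlk1, an inhibitor of their proliferation. miR-126 is also found in blood stem cells and platelets. Acini are surrounded by capillaries, so a preparation of acini can hold endothelial cells.

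The hairpin and the more abundant arm are shown because both results below, the level of each arm and their ratio, rest on reads from this one precursor. Sequences are from RefSeq on GRCm38.p6, in which Mir126a lies on chromosome 2 from 26591357 to 26591429 on the plus strand. The table held a mature entry for 1 of the 2 members, miR-126a-3p. In the hairpin the capitals mark the 3p strand, at positions 46 to 67 of 73, and in the mature strand they mark the seed:
Mir126a hairpin: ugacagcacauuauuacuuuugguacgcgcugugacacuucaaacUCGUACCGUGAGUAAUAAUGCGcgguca
miR-126a-3p: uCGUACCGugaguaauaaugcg

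No other of the 1679 mature miRNAs in the RefSeq table shared bases 2 to 8 of miR-126a-3p, so no seed family was counted with it. In GENCODE M21 (GRCm38) the hairpin lies on the same strand as Egfl7. It falls in an intron of 8 of the 9 Egfl7 transcripts that span it, and within exon 4 of the other, a retained-intron transcript. The longer gene Gm20532 also spans it.

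A second annotated hairpin, Mir126b, lies on the opposite strand at positions 26591363 to 26591420. Its 5p strand is complementary to miR-126a-3p over 19 bases and is shown, with its seed in capitals, because such a strand would be a separate product of the same locus:
miR-126b-5p: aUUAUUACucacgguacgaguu

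Both arms of miR-126b had a count of 0 in every library. The arms of miR-126a together had 189226 counts, so a count of 0 allows miR-126b up to 0.00159% of that number (3 counts; this covers counting error only). All counts listed at this locus were thus under the strand that also carries Egfl7.

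The shallowest library, replicate 2 of caerulein 100 nM, had 535473 counts, and the deepest, replicate 3 of that group, had 5087728. The acinar miRNA miR-148a-3p alone took 50.5% of counts in control replicate 3, against 17.6% and 18.7% in the other control libraries. Levels were therefore scaled by TMM, a method that corrects for such uneven composition, and are given as TMM-scaled CPM, that is, as counts brought to a common library size. A low-count filter left 351 miRNAs, both arms of miR-126a among them. Differences between groups were tested with edgeR's quasi-likelihood test on all 15 libraries and adjusted by Benjamini-Hochberg over these 351 miRNAs, with a threshold of 0.05.

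miR-126a-3p was an abundant miRNA in this tissue, and miR-126a-5p was about an order of magnitude scarcer. Over the 15 libraries the 3p arm held 0.545% ± 0.130 of counts (SD, n = 15) and ranked from place 23 to place 34 among all mature miRNAs. The 5p arm held 0.0492% ± 0.0135 of counts and ranked from place 67 to place 97. In every library both arms were far above the low-count limit, with at least 1784 counts of 3p and 160 counts of 5p. Counting error alone would give a coefficient of variation of 0.814% for 3p and 2.60% for 5p in control, where the measured values were 13.2% and 11.1%. The spread between control libraries was thus larger than counting error in both arms.

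The table holds miRNAs only, so mRNA markers of endothelium, Egfl7 among them, were not analysed here. No other miRNA listed for this work is restricted to endothelial cells. The label endothelial thus rests on what is known of miR-126. In these bulk samples, fewer endothelial cells and less miR-126a per cell cannot be told apart.

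Among the 4 treatments, caerulein at 100 nM went with the lowest levels of both arms. mmu-miR-126a-3p had 3486, 3121 and 5790 CPM in the libraries of caerulein 100 nM, against 6060, 6492 and 7783 CPM in control. mmu-miR-126a-5p had 314, 280 and 456 CPM with caerulein 100 nM, against 660, 584 and 730 CPM in control. On this TMM scale 3 of 3 treated libraries lay below every control library in both arms, and replicate 3 was the highest library of each group. Divided by library totals instead, as RPM, control replicate 3 was the lowest control library in both arms. It had 5720 RPM of 3p, against 6773 and 7698 RPM in control replicates 1 and 2. For 5p it had 537 RPM, against 738 and 692 RPM.

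The 3p arm averaged 4133 ± 1447 CPM with caerulein 100 nM and 6779 ± 896 CPM in control (SD, n = 3 each). The log2 difference of -0.71 (SE 0.28; 95% interval from -1.29 to -0.13), or 0.610 of the control level, missed the threshold (adjusted p = 0.984, edgeR). The 5p arm averaged 350 ± 93.6 CPM with caerulein 100 nM and 658 ± 73.3 CPM in control. The log2 difference of -0.90 (SE 0.28; 95% interval from -1.48 to -0.33), or 0.534 of control, also missed it (adjusted p = 0.424, edgeR).

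By unadjusted p, 5p stood in place 2 and 3p in place 5 of the 351 miRNAs in this comparison. The arms were chosen with earlier results of these data known, so these places are a description only. The share of all miRNAs called at an adjusted p under 0.05 was 0% with edgeR, and DESeq2 called 1. At an unadjusted p under 0.05 there were 12 miRNAs in edgeR, and those lower made up 2.28% of all. Groups did not overlap, with the treated one lower, for 3.99% of miRNAs, against 2 of 2 arms here. These 2 arms are strands of 1 hairpin and count as 1 observation of the locus rather than 2. On the authors' RPM scale, which divides by the library total and was looked at after the data were seen, 5p still did not overlap (1.71% of miRNAs were lower without overlap). The 3p arm then did, with 6042 RPM in replicate 3 of caerulein 100 nM against 5720 RPM in control replicate 3.

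Replicate 3 of caerulein 100 nM, the deepest library, lay nearest to control. Without it the log2 difference of 3p was -1.04 and that of 5p was -1.15 (adjusted p = 0.243 and 0.209, edgeR). Without control replicate 3, the library dominated by miR-148a-3p, they were -0.59 and -0.81. No setting tried brought either arm past the threshold.

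**Figure D1:**
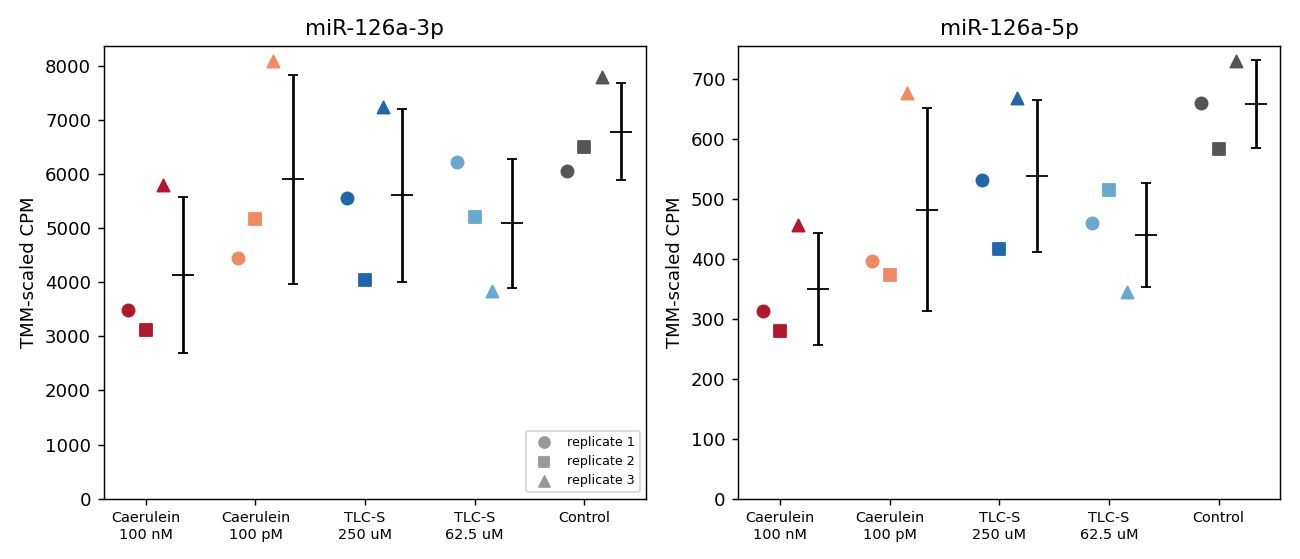
Level of miR-126a-3p (left) and miR-126a-5p (right) in TMM-scaled CPM on a linear axis from 0, by group. Each point is 1 library, its shape gives the replicate number, and the bar beside the points is the mean ± SD of 3 libraries. Both arms lie below every control library in all 3 libraries of caerulein 100 nM, between 3121 and 5790 CPM for 3p against 6060 to 7783 CPM in control.

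With the physiological dose of caerulein, both arms had smaller differences from control. miR-126a-3p had 4455, 5161 and 8091 CPM with caerulein 100 pM, against 6060, 6492 and 7783 CPM in control. The treated libraries lay on both sides of control, since 2 of 3 were below every control library and 1 was above all of them. miR-126a-5p had 396, 372 and 677 CPM with caerulein 100 pM, with 2 of 3 libraries below every control library.

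The log2 difference of 3p was -0.20 (SE 0.28, 95% interval -0.78 to 0.38; adjusted p = 0.942, edgeR). That of 5p was -0.45 (SE 0.28, 95% interval -1.02 to 0.12; adjusted p = 0.886, edgeR). Neither passed, and the share of all miRNAs called was 0% with edgeR (24 miRNAs were below 0.05 before adjustment, and DESeq2 called 0). Single libraries decided the size here: without replicate 1 of caerulein 100 pM the 3p difference turned to 0.0048, without replicate 3 it was -0.47, and without control replicate 3 it was -0.07. The 5p difference was -0.29 without replicate 1 of caerulein 100 pM and -0.76 without its replicate 3. Scaling mattered as well, since when library totals replaced TMM the 3p difference was -0.44 and the 5p difference -0.69, while the median of all miRNAs shifted by -0.24.

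The higher dose of the bile acid gave the smallest difference of the 5p arm from control. miR-126a-3p had 5554, 4038 and 7228 CPM with TLC-S 250 uM, against 6060, 6492 and 7783 CPM in control. miR-126a-5p had 532, 416 and 668 CPM with TLC-S 250 uM, against 660, 584 and 730 CPM in control. In both arms 2 of 3 treated libraries lay below every control library, and replicate 3 lay within the range of control.

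The log2 differences were close in the 2 arms, -0.27 for 3p (SE 0.28, interval from -0.85 to 0.30) and -0.29 for 5p (SE 0.28, interval from -0.85 to 0.28). Neither passed (adjusted p = 0.999 for both, edgeR), and the share of all miRNAs called was 0% (4 were below 0.05 before adjustment, and DESeq2 called 0). Without replicate 2 of TLC-S 250 uM they were -0.04 and -0.09, without replicate 3 they were -0.53 and -0.50, and without control replicate 3 they were -0.15 and -0.20.

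At the lower dose of TLC-S, the 5p arm was below control in every library. miR-126a-5p had 459, 515 and 345 CPM with TLC-S 62.5 uM, against 660, 584 and 730 CPM in control. miR-126a-3p had 6214, 5210 and 3837 CPM with TLC-S 62.5 uM, against 6060, 6492 and 7783 CPM in control. The groups did not overlap for 5p, as for 5.98% of all miRNAs in this comparison, and for 3p replicate 1 lay above the lowest control library. Replicate 3 was the lowest library of this group in both arms, where in the other 4 groups it was the highest on the TMM scale. On the RPM scale control replicate 3 was instead the lowest control library in both arms.

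The log2 difference of 5p was -0.58 (SE 0.28, 95% interval -1.15 to -0.01; adjusted p = 0.648, edgeR). That of 3p was -0.41 (SE 0.28, 95% interval -0.99 to 0.16; adjusted p = 0.832, edgeR). Neither was among the 0.570% of miRNAs called with edgeR. Before adjustment 26 miRNAs were below 0.05, 5p among them, and DESeq2 called 4. On the RPM scale 3.13% of miRNAs were lower without overlap and 5p was not among them, with 561 RPM in replicate 2 of TLC-S 62.5 uM against 537 RPM in control replicate 3. Without control replicate 3 the differences were -0.48 for 5p and -0.29 for 3p.

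The 4 comparisons share the same 3 control libraries, so their common sign is not 4 separate observations. On the TMM scale 9 of the 12 treated libraries lay below every control library for 3p and 10 for 5p. How many of all 351 miRNAs have such a count was not computed, so these counts are a description only. An F test over the 5 groups did not pass for 3p (adjusted p = 0.881, edgeR) or 5p (adjusted p = 0.603), where 0.855% of miRNAs were called.

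**Figure D2:**
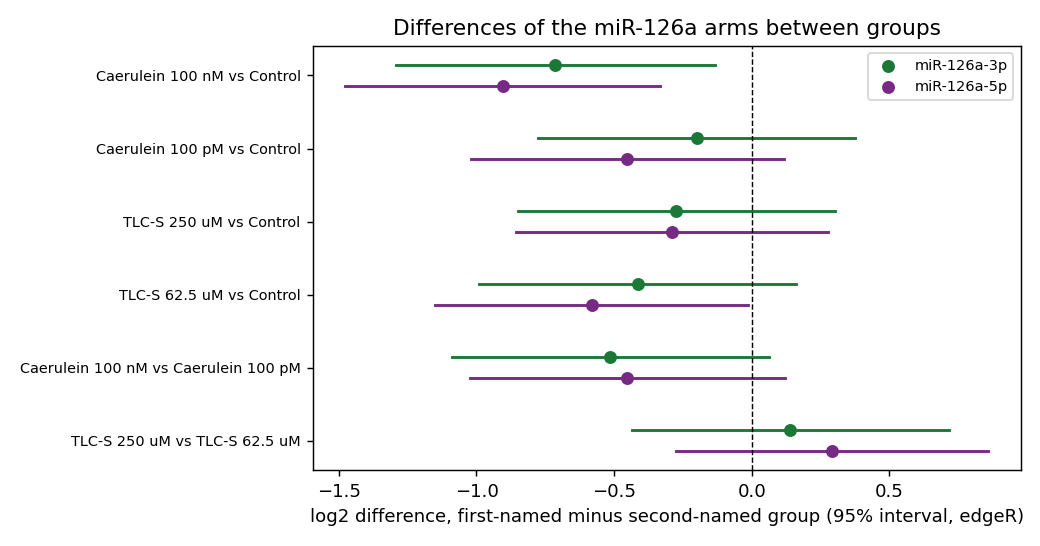
Log2 differences of miR-126a-3p and miR-126a-5p in 6 comparisons, as the first-named minus the second-named group, with 95% intervals from edgeR. Both intervals for caerulein 100 nM against control lie below 0, from -1.29 to -0.13 for 3p and from -1.48 to -0.33 for 5p, and no difference passed after adjustment over 351 miRNAs.

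Between doses, the higher dose of caerulein went with lower values of both arms and the higher dose of TLC-S with higher ones. For caerulein 100 nM against 100 pM, the log2 difference was -0.51 for 3p (interval from -1.09 to 0.06) and -0.45 for 5p (interval from -1.02 to 0.12). Neither passed (adjusted p = 0.986 for both, edgeR), as for all miRNAs (0% called; 6 below 0.05 before adjustment, and 0 by DESeq2). When library totals replaced TMM they were -0.19 and -0.14, while the median of all miRNAs moved by 0.29 between these doses. Without replicate 3 of caerulein 100 pM they were -0.22 for 3p and -0.12 for 5p, without replicate 2 of caerulein 100 nM -0.31 and -0.28, and without replicate 3 of caerulein 100 nM -0.81 and -0.67. For TLC-S 250 uM against 62.5 uM, the log2 difference was 0.14 for 3p (interval from -0.44 to 0.72) and 0.29 for 5p (interval from -0.27 to 0.86). Neither passed (adjusted p = 0.941 and 0.906, edgeR), where 1.14% of miRNAs were called (31 were below 0.05 before adjustment, and DESeq2 called 4). Without replicate 3 of TLC-S 250 uM the 3p difference turned to -0.10 and the 5p difference was 0.095, and leaving out other single TLC-S libraries gave from 0.035 to 0.34 for 3p and up to 0.46 for 5p. Whether the dose effect differed between the 2 agents was not tested.

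Ordered by mean, 3p was highest in control, followed by caerulein 100 pM (5902 ± 1928 CPM), TLC-S 250 uM (5607 ± 1596 CPM), TLC-S 62.5 uM (5087 ± 1193 CPM) and caerulein 100 nM. The 5p arm had the order control, TLC-S 250 uM (538 ± 126.1 CPM), caerulein 100 pM (482 ± 169 CPM), TLC-S 62.5 uM (440 ± 86.9 CPM) and caerulein 100 nM. The orders of the 2 arms thus differed in the places of caerulein 100 pM and TLC-S 250 uM. No step between neighbours in either order was larger than the larger SD of the 2 groups.

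The 2 arms moved together from library to library. Across the 15 libraries the log2 CPM of the arms correlated with a Pearson r of 0.927 and a Spearman rho of 0.936 (permutation p = 4e-05 each, and the same when adjusted over both). Both arms are strands of 1 hairpin, so this p-value says little beyond their origin. The permutation also shuffled libraries without regard to group. Both arms of a library are scaled by the same factor, and with library totals in that place r was 0.921. Without the 2 libraries farthest from the median of 3p, replicates 1 and 2 of caerulein 100 nM, r was 0.874. With group means removed r was 0.927, so the arms also followed each other within groups.

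**Figure D3:**
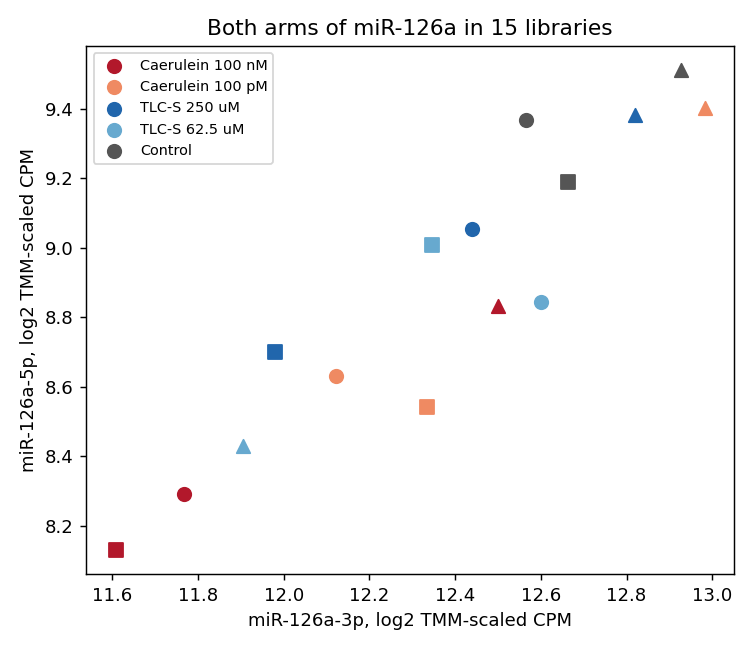
Log2 TMM-scaled CPM of miR-126a-5p against miR-126a-3p in the 15 libraries, coloured by group, with marker shapes for replicates 1 (circle), 2 (square) and 3 (triangle). The points follow 1 line (r = 0.927), with replicates 1 and 2 of caerulein 100 nM at its low end.

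The ratio of the arms does not depend on scaling between libraries. Per count of 5p there were from 9.18 counts of 3p in control replicate 1 to 13.9 in replicate 2 of caerulein 100 pM, with a mean of 11.2 ± 1.30 (SD, n = 15). The 5p arm was 8.25% ± 0.844 of the counts of both arms. In the shallowest library, replicate 2 of caerulein 100 nM, this share was 8.23% with a 95% Wilson interval from 7.09% to 9.54%, which covers counting error only.

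The log2 ratio of 5p over 3p, with 0.5 added to each count, was set against control in each treatment. It averaged -3.54 ± 0.110 with caerulein 100 nM, -3.62 ± 0.155 with caerulein 100 pM, -3.37 ± 0.0802 with TLC-S 250 uM, -3.52 ± 0.214 with TLC-S 62.5 uM and -3.36 ± 0.146 in control (SD, n = 3 each). The difference from control was -0.18 for caerulein 100 nM (exact two-sided permutation p = 0.3) and -0.26 for caerulein 100 pM (exact p = 0.1). It was -0.0041 for TLC-S 250 uM (exact p = 1) and -0.16 for TLC-S 62.5 uM (exact p = 0.4). Single libraries moved these values: caerulein 100 nM was at -0.09 without control replicate 1 and at -0.11 without its own replicate 3, and caerulein 100 pM at -0.17 without its replicate 2. TLC-S 62.5 uM was at -0.05 without its replicate 1, at -0.25 without its replicate 2 and at -0.08 without control replicate 1, and TLC-S 250 uM ran from -0.061 to 0.078. Adjusted over these 4 comparisons the smallest value was 0.4, and 3 libraries against 3 cannot go below 0.1 before adjustment. All 3 libraries of caerulein 100 pM lay below every control library, by a small margin, with a highest value of -3.49 against a lowest control value of -3.48.

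The arm ratio of miR-126a varied little beside that of other hairpins. Among 32 hairpins with both arms tested and at least 100 counts per library on average in the scarcer arm, the SD of the log2 ratio over the 15 libraries was smallest for miR-126a, at 0.164. The median of these hairpins was 0.483 and the acinar hairpin mir-148a had the largest value, 0.713. Counting alone would give an SD of 0.0582 for miR-126a, so its ratio still varied more than counting error. Most of the other hairpins had fewer counts in their scarcer arm than miR-126a, and for these counting adds more to the spread. Some may also share an arm with another precursor, as the hairpins let-7a-1 and let-7c-2 had the same mean of 115.489 counts in the scarcer arm. How shared reads were divided is not given, and its part in the spread was not tested. Among the 10 hairpins with at least 500 counts in the scarcer arm, a limit chosen after the data were seen, miR-126a was again the lowest, against a median of 0.499. This is a description of these libraries, with no test.

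**Figure D4:**
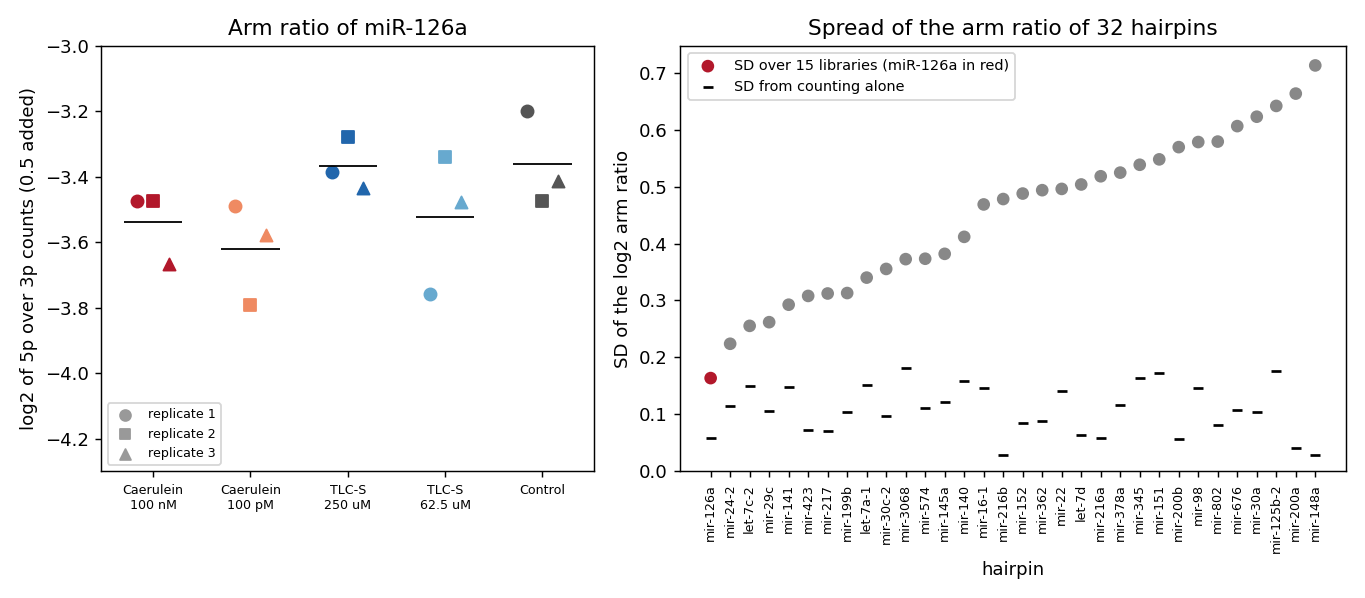
Left, log2 ratio of 5p over 3p counts of miR-126a (0.5 added to each) by group, 1 point per library, with group means as lines on an axis that does not start at 0. Right, SD of the same ratio over 15 libraries for 32 hairpins, with the SD that counting alone would give as dashes; miR-126a has the smallest SD (0.164), against a median of 0.483.

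Other cell types of the pancreas were followed through lists of their miRNAs, described by counts and medians. The lists were chosen with earlier results of these data known. In the comparison of caerulein 100 nM with control, where 2 of 2 miR-126a arms were below 0, 47.3% of all 351 miRNAs had a log2 difference below 0 and their median was 0.03. Of 16 miRNAs linked to blood vessels but also made by other cells, 11 were below 0 with a median of -0.06. With edgeR 0 of them passed in either direction, 0 were below 0.05 before adjustment, and DESeq2 called 0. Their most abundant members were miR-27b-3p (-0.03, SE 0.20), miR-10b-5p (-0.27, SE 0.24) and miR-10a-5p (-0.35, SE 0.25). With TLC-S 62.5 uM 7 of the 16 were below 0, with a median of 0.03, against 51.3% of all miRNAs and a median of -0.01.

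Mesenchymal miRNAs, made by stellate cells, pericytes and smooth muscle, are from the other stromal cells that could accompany acini. With caerulein 100 nM 6 of 8 were below 0, with a median of -0.11. The most abundant, miR-143-3p, was at -0.13 (SE 0.27) on the log2 scale, miR-199a-3p at -0.41 (SE 0.23) and miR-145a-5p at -0.08 (SE 0.25). With TLC-S 62.5 uM 7 of 8 were above 0, with a median of 0.11. The list counts miR-199a-3p and miR-199b-3p as separate entries, though their values were near the same. They were at -0.41 each with caerulein 100 nM, and at 0.09 and 0.10 with TLC-S 62.5 uM. The list also holds both arms of miR-143, miR-145a and miR-199a. These entries may thus not be separate observations. In both comparisons 0 members passed with edgeR, 0 were below 0.05 before adjustment, and DESeq2 called 0. The summed level of the list ran from 9015 to 14910 CPM with caerulein 100 nM and from 12314 to 13090 CPM in control.

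Blood cell miRNAs were scarce. The 4 tested leukocyte miRNAs summed to 39.2 to 65.9 CPM with caerulein 100 nM and to 55.9 to 73.3 CPM in control, and 3 of 4 were below 0 with a median of -0.40. The lymphocyte miRNA miR-150-5p, their most abundant member, was at -0.37 (SE 0.33) on the log2 scale. The 4 tested erythrocyte miRNAs summed to 124 to 170 CPM with caerulein 100 nM and to 131 to 156 CPM in control, and 3 of 4 were above 0 with a median of 0.35. Among these 3 were miR-486a-5p (0.44, SE 0.36) and miR-486b-5p (0.38, SE 0.35), paired entries that may not be separate observations. miR-451a, which red cells make in quantity, was at -0.22 (SE 0.29). Neither list had a member at 0 in all libraries. With edgeR 0 members of either passed, 1 leukocyte miRNA, miR-142a-5p, was below 0.05 before adjustment, and DESeq2 called 0. Their part in the values of miR-126a was not tested.

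With caerulein 100 nM 4 of 8 acinar miRNAs were below 0, with a median of 0.03, and with TLC-S 62.5 uM 8 of 8 were below 0, with a median of -0.51. The list holds both arms of miR-148a, miR-216a, miR-216b and miR-217, so its 8 entries are not 8 separate observations. miR-148a-3p was at -0.65 (SE 0.40) with caerulein 100 nM and -0.51 (SE 0.40) with TLC-S 62.5 uM, and miR-217-5p at 0.17 (SE 0.26) with caerulein 100 nM and -0.17 (SE 0.26) with TLC-S 62.5 uM. The islet and neuroendocrine list had 1 of 4 members below 0 with caerulein 100 nM and a median of 0.18, with miR-375-3p at 0.25 (SE 0.22). This list was abundant, with a sum of 118101 to 128569 CPM with caerulein 100 nM and 79271 to 128199 CPM in control. Over the 15 libraries miR-375-3p averaged 99986 CPM, above the acinar miR-217-5p at 89283 CPM. Whether its counts came from islet cells was not tested, so the list is not a measure of islet cells alone. With edgeR 0 members of these 2 lists passed in these comparisons, and DESeq2 called 0. At an unadjusted p under 0.05 there were 0 with caerulein 100 nM. With TLC-S 62.5 uM there were 3 acinar miRNAs, all lower than control, and 1 islet miRNA, which was higher.

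Setting miR-126a against the mesenchymal list within each library removes the scaling between libraries. The log2 ratio of the summed arms over the summed list was -1.25, -1.64 and -1.26 with caerulein 100 nM, against -0.87, -0.89 and -0.59 in control. The 2 groups did not overlap, so the ratio was lower in 3 of 3 treated libraries. The mean difference was -0.60 (exact two-sided permutation p = 0.1, the smallest that 3 against 3 allows; adjusted over 4 comparisons, 0.4). With miR-143-3p alone in place of the list it was -0.61.

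For the other treatments the ratio overlapped control. The mean difference was -0.28 with caerulein 100 pM (exact p = 0.3), -0.30 with TLC-S 250 uM (exact p = 0.9) and -0.56 with TLC-S 62.5 uM (exact p = 0.3). With TLC-S 250 uM the 3 libraries were at -0.44, -1.998 and -0.82, a wider range than any other group had, and without replicate 2 the difference turned to 0.15, while without replicate 1 it was -0.62. Leaving out single libraries gave from -0.42 to -0.12 with caerulein 100 pM (-0.12 without its replicate 2, -0.19 without control replicate 3) and from -0.84 to -0.30 with TLC-S 62.5 uM (without its replicates 1 and 3 in turn). Against the acinar list the ratio of caerulein 100 nM differed from control by -0.57 (exact p = 0.4). There control replicate 3 was at -6.54, against -5.18 and -5.34 in the other control libraries, and it was the library in which miR-148a-3p took the largest share of counts. Against the 5 leukocyte miRNAs in the table the difference of caerulein 100 nM was -0.36 (exact p = 0.2).

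**Figure D5:**
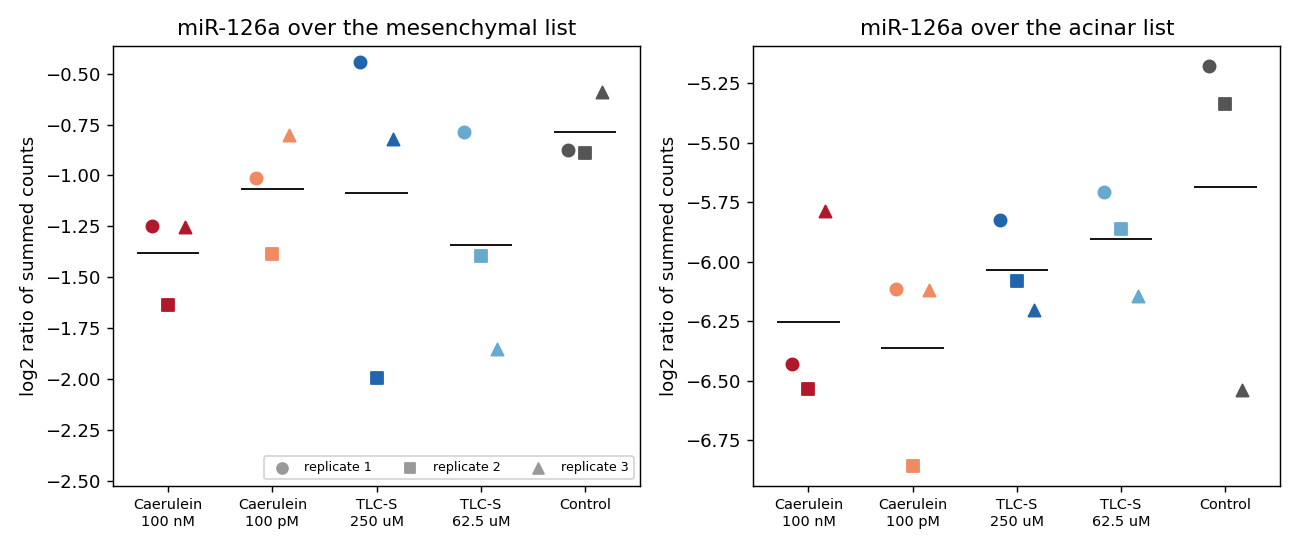
Log2 ratio of the summed counts of both miR-126a arms over the mesenchymal list (left) and over the acinar list (right), 1 point per library, with group means as lines; the axes do not start at 0. On the left the 3 libraries of caerulein 100 nM (-1.64 to -1.25) lie below the 3 control libraries (-0.89 to -0.59). On the right control replicate 3, at -6.54, lies apart from the other control libraries. Replicate 2 of caerulein 100 pM lies lower still, at -6.86.

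The miRNAs whose levels were most like miR-126a were ranked by Spearman rho with the mean log2 CPM of its arms over the 15 libraries. Among 349 other miRNAs the median rho was -0.0071 and the highest 0.80. The nearest 5 were miR-411-5p (rho 0.80, mean 18.6 CPM), miR-335-3p (0.797, 2.88 CPM), miR-455-5p (0.718, 45.9 CPM), miR-152-3p (0.643, 12689 CPM) and miR-30b-3p (0.639, 21.6 CPM). All of them but miR-152-3p were scarce, and miR-335-3p had 0 CPM in some libraries, so counting error weighs on their rho. Also, the highest of 349 values is raised by the choice itself.

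miR-411-5p, from the imprinted Dlk1-Dio3 locus, had 5.88 to 15.8 CPM with caerulein 100 nM, against 14.1 to 29.2 CPM in control, and its groups overlapped (log2 difference -1.09, SE 0.49, adjusted p = 0.984, edgeR). miR-455-5p had 24.5 to 53.5 CPM with caerulein 100 nM, against 47.1 to 70.3 CPM in control (-0.67, SE 0.33, adjusted p = 0.984). miR-30b-3p had 12.2 to 22.0 CPM with caerulein 100 nM, against 24.7 to 36.3 CPM in control, without overlap (-0.75, SE 0.37, adjusted p = 0.984). In this comparison 3.99% of all miRNAs were lower without overlap. miR-152-3p had 9847 to 11910 CPM with caerulein 100 nM, against 10277 to 14957 CPM in control (-0.16, SE 0.23, adjusted p = 0.984). Against control, miR-335-3p was at -0.999 (SE 0.98) with caerulein 100 nM. It was at 0.45 (SE 0.89) with TLC-S 250 uM and 0.36 (SE 0.89) with TLC-S 62.5 uM. These miRNAs were picked by rho over the same 15 libraries, which include these groups. Lower values with caerulein 100 nM are thus partly set by the choice and are not separate observations. Of the 16 miRNAs linked to vessels, 11 had a rho above 0, and the list ran from -0.461 for miR-92a-3p, in place 316, to 0.582 for miR-139-5p, in place 8. The 8 mesenchymal miRNAs also ran on both sides of 0, from -0.318 to 0.579. Summed over each list, the rho with miR-126a was 0.364 for the vascular, 0.10 for the mesenchymal, 0.611 for the leukocyte, 0.132 for the erythrocyte, 0.421 for the acinar and -0.489 for the islet and neuroendocrine list. Such a sum weighs its most abundant member most. Of the acinar members 3 of 8 had a rho above 0, from -0.114 to 0.446 for miR-148a-3p, the most abundant. The 4 leukocyte members ran from -0.039 to 0.536 for miR-150-5p, the most abundant. Total counts had a rho of 0.361 and the TMM factor one of -0.339. All these coefficients are over the same 15 libraries and are given as a description.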

How the data were processed

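Small RNA of 15 libraries of mouse pancreatic acini was analysed from 3 tables. Per the labels' protocols, total RNA was prepared with a mirVana kit. Per the submitters' processing notes, the tools were cutadapt and Bowtie and the builds GRCm38 and mm10; how reads were counted is not given in the sources used here. For mature miRNAs the authors deposited estimated counts (expected counts), already rounded to whole numbers. Their deposited table per precursor holds estimated counts that can be fractional, and it gave the arm ratios of the hairpins. The deposited RPM, scaled by the authors to equal library totals, served for alternatives.

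Columns were tied to samples by the codes in the sample titles. The fit took the 15 libraries together, with a mean per group, in edgeR 4.0.16 under R 4.3.3. It used TMM scaling, filterByExpr at a minimum count of 10 and a minimum total of 15, and the quasi-likelihood test, with Benjamini-Hochberg adjustment over 351 miRNAs. The SE came from the F statistic. The fit was tested on simulated data. Exact permutation tests, and permutation tests of correlations with 100000 resamples, used scipy 1.17.1. Alternatives were DESeq2 1.42.0, limma 3.58.1 on log2 RPM with pseudocounts of 1 and 10 (which understates changes of scarce miRNAs), other scalings and filters, a replicate block, and leaving out libraries. Replicate pairs differed by more than sampling noise (lowest chi-square per degree of freedom of a pair, 62.9), so none was treated as a repeat deposit of another; this does not show that libraries come from separate preparations.

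The members and lists were chosen with earlier results of these data known. The rule named both arms, the miR-126b arms, the 5 most alike miRNAs by Spearman rho and, per list, at most the 3 with the highest mean CPM; several list members are covered by their list's values alone. miR-92a-3p, miR-139-5p, miR-142a-5p and miR-199b-3p were named after their values were seen. Sequences are from RefSeq (GRCm38.p6) and gene models from GENCODE M21. Figures were drawn with matplotlib 3.10.9 in Python 3.11.15.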

Additional observations from a re-analysis of the deposited data

How the results depend on the processing

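Neither arm of miR-126a passed an adjusted p of 0.05 in any of the 6 comparisons or the F test under any alternative run. Of 383 recomputed values, 376 were unchanged and 7 turned in sign, all of them on leaving out libraries. Differences of the arms were judged by direction and side of the threshold. The F tests, which have no direction, and the arm correlation were judged by the threshold alone. The ratios were judged by sign alone, since 3 libraries against 3 cannot go below 0.1. The count thus mixes values that could change in different ways. The turned results ranged from -0.47 to 0.0048 for 3p with caerulein 100 pM against control and from -0.18 to 0.39 for 3p with TLC-S 250 uM against 62.5 uM. The arm ratio with TLC-S 250 uM ranged from -0.061 to 0.078, and the ratio to the mesenchymal list from -0.62 to 0.15. For caerulein 100 nM against control, 21 alternatives gave log2 differences from -1.04 to -0.55 for 3p (adjusted p from 0.243 to 0.998) and from -1.15 to -0.78 for 5p (adjusted p from 0.124 to 0.998). Leaving out all libraries of 1 replicate number left 2 per group.

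With a replicate block the 5p difference for caerulein 100 nM was -0.93 (adjusted p = 0.124, edgeR) and no call of either arm changed. Same-numbered libraries deviated together in some pairs and not in others (r from -0.12 to 0.40). The labels do not say whether they share a preparation or batch, and this was not tested. With the block the SE of that 5p difference was 0.24, against 0.28 without it. There were 5 calls for TLC-S 62.5 uM with the block against 2 without it, and 6 in the F test against 3. Over all alternatives the calls among all miRNAs ran from 0 to 1 for caerulein 100 nM (0 as reported; DESeq2 called 1), from 0 to 5 for TLC-S 62.5 uM (2 as reported), from 0 to 4 between the TLC-S doses (4 as reported) and from 1 to 10 in the F test (3 as reported); the causes were not tested. With 3 libraries per group, 95% intervals of caerulein 100 nM against control reached a median of 0.729 to either side on the log2 scale.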
